A study of Mus musculus with 4 samples.

Results

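Macrophages turn arginine into nitric oxide and a citric acid cycle intermediate into itaconate, and 8 genes for these reactions were followed on 4 mouse expression arrays. Their probes were found by gene name in the array design, with Acod1 under its older name Irg1, and all 8 genes were present, on 10 of 55681 probes and 20 of 59305 spots that were not controls. After probe names were brought up to date the arrays covered 36095 genes or names. The cells were RAW264.7, an established mouse macrophage-like line, carrying a stably integrated vector that expresses an artificial microRNA and selected with blasticidin as bulk cultures. The 4 cultures, 1 array each, were Linc-AAM knockdown under AEPS, Linc-AAM knockdown in DMEM, scramble control under AEPS and scramble control in DMEM. AEPS, a polysaccharide from Actinidia eriantha roots, was given at 50 µg/mL, and every culture was harvested after 4 h. Linc-AAM is a long intergenic non-coding RNA, and its own level was not analysed here. The design asks what AEPS does to expression and whether cells with the knockdown vector respond differently.

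The inducible nitric oxide synthase NOS2 splits arginine into nitric oxide and citrulline and needs tetrahydrobiopterin, whose synthesis starts with GTP cyclohydrolase, the product of Gch1. Argininosuccinate synthase (Ass1) and argininosuccinate lyase (Asl) rebuild arginine from citrulline, and the transporter SLC7A2 brings arginine in. The arginases ARG1, in the cytosol, and ARG2, in mitochondria, cleave arginine to ornithine and urea and so draw on the same pool. ACOD1 makes itaconate from cis-aconitate in mitochondria. Macrophages activated by bacterial products or cytokines are known for making nitric oxide and itaconate, and alternatively activated mouse macrophages for high Arg1.

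No group had a replicate, the number of arrays limits the precision, and p-values below measure only the spread between these 4 arrays. For each gene, the error behind p-values and SEs is its difference in AEPS response between the lines, moderated by a spread drawn from all genes tested. It does not measure the spread between replicate cultures. Between 53.4% and 58% of spots that were not controls were well above background on an array, 0 were saturated, and for probes printed 10 times the spots of 1 array scattered by a median log2 SD of 0.0364 to 0.0458. All 11 macrophage markers checked were well above background on all 4 arrays. Of 24 markers of other cell types on the arrays, 14 were well above background on none, among them the hepatocyte genes Alb, Cps1 and Otc, 3 on some and 7 on all. Beside the AEPS effects below, limma called 3 of 9 tested markers of other cells higher (S100a8, Col1a1 and Col1a2), and 1 of 11 macrophage markers (Cd14). Of all genes tested, it called 7.4% higher. Levels of the 24 markers relative to the array's 75th percentile summed to 22.5 under AEPS and 20.6 in DMEM on the arrays labelled knockdown, and to 21.6 under AEPS and 19.1 in DMEM on those labelled scramble. The largest term of each sum was Kdr, a marker of endothelium, which limma did not call. The part of other cells in the results was not tested. In bulk RNA, a smaller share of cells with a transcript and less of it per cell cannot be told apart. The scanner files and the authors' value table name the lines in opposite ways: over the 4 columns of the table, the rank correlation across probes was 1 to 5 digits with the scanner file of the other line in the same medium and 0.96883 to 0.96896 with the file of the same name. Lines are called here as the scanner files name them, "labelled knockdown" and "labelled scramble". A difference between lines takes the opposite sign under the table's names, whereas the AEPS effect averaged over the lines is the same under either naming.

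In the array's mm9 coordinates, the Nos2 probe lay on chromosome 11 from 78773567 to 78773626 on the plus strand. The Gch1 probes lay on chromosome 14 on the minus strand, from 47775348 to 47775407 and from 47773797 to 47773856, and the Acod1 probe on the plus strand of the same chromosome from 103455171 to 103455231. Both Ass1 probes lay on the plus strand of chromosome 2, from 31376068 to 31376127 and from 31375998 to 31376057. The Asl probe lay on the minus strand of chromosome 5, with coordinates from 130487964 to 130488549, a span of 586 bases. The remaining probes were those of Slc7a2 on the plus strand of chromosome 8 (42002869 to 42002928), Arg1 on the minus strand of chromosome 10 (24636194 to 24636253) and Arg2 on the plus strand of chromosome 12 (80252972 to 80253031). Exons and untranslated regions of that build were not used here.

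AEPS raised 5 of the 8 genes over both lines: Acod1, Arg2, Ass1, Nos2 and Gch1. Asl did not pass the test, Arg1 and Slc7a2 were too dim to be tested, and 0 of the 8 fell, also at an unadjusted p under 0.05. A gene was called when its adjusted p was under 0.05 in an additive limma model of line and treatment, fitted to the 22329 genes that at least 2 arrays measured well above background. By that rule 7.4% of all genes tested were called higher and 7.29% lower, and an unadjusted p was under 0.05 for 17.5% higher and 16.4% lower. The call was lost for Nos2, Arg2, Ass1 and Gch1 when dim genes were kept in the model (limma adjusted p = 0.0784 for Nos2, 0.0923 for Arg2, 0.124 for Ass1 and 0.0538 for Gch1), and for Nos2, Arg2 and Ass1 when line was left out of it. Levels below are log2 intensities relative to the array's 75th percentile, so 0 marks that percentile and 1 unit is a 2-fold step. Levels of different genes come from different probes and are not compared.

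Promoter sequences were read from RefSeq (GRCm38.p6), where 3 of the 8 genes matched a window. Those were Ass1, Gch1 and Acod1. All 3 rose, as did Nos2 and Arg2, which matched no window. Every matched window is shown. Each is the 250 bases before the annotated start, 5′ to 3′ on the gene's strand, with capitals for motif matches.
Acod1 (chr14:103046762-103047011, plus strand): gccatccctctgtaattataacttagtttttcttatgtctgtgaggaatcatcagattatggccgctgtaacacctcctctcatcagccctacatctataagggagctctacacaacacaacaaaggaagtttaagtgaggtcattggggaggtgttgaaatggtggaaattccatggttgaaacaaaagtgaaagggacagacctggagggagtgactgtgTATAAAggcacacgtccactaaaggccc
Gch1 (chr14:47189414-47189663, minus strand): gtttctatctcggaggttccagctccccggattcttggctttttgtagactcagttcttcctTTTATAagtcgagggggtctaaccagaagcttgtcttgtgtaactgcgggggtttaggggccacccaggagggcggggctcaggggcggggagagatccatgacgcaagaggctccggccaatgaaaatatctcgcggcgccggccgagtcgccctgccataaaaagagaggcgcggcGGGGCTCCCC
Ass1 (chr2:31470020-31470269, plus strand): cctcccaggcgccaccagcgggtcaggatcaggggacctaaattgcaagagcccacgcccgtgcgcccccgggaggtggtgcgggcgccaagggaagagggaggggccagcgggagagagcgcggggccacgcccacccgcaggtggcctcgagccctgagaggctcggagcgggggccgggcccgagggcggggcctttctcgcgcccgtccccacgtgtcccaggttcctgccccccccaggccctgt

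The motifs searched on both strands were the NF-kB consensus, the interferon-stimulated response element, the gamma-activated site TTCNNNGAA, the AP-1 site TGANTCA and the TATA box TATAAA. Acod1 held TATAAA on its own strand 28 bases before the start. Gch1 held an NF-kB consensus match ending at the base before the start, and TATAAA on the opposite strand 188 bases before it. Ass1 held 0 matches, and no match overlapped another motif. Of 32851 promoter windows of this length, 12.4% held a TATA box, 3.9% the NF-kB consensus, 2.98% the interferon-stimulated response element, 7.02% the gamma-activated site and 6.75% the AP-1 site. The GC content of the windows was 44.4% for Acod1, 59.2% for Gch1 and 75.6% for Ass1. A match is a description of letters and no evidence of binding.

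**Figure D1:**
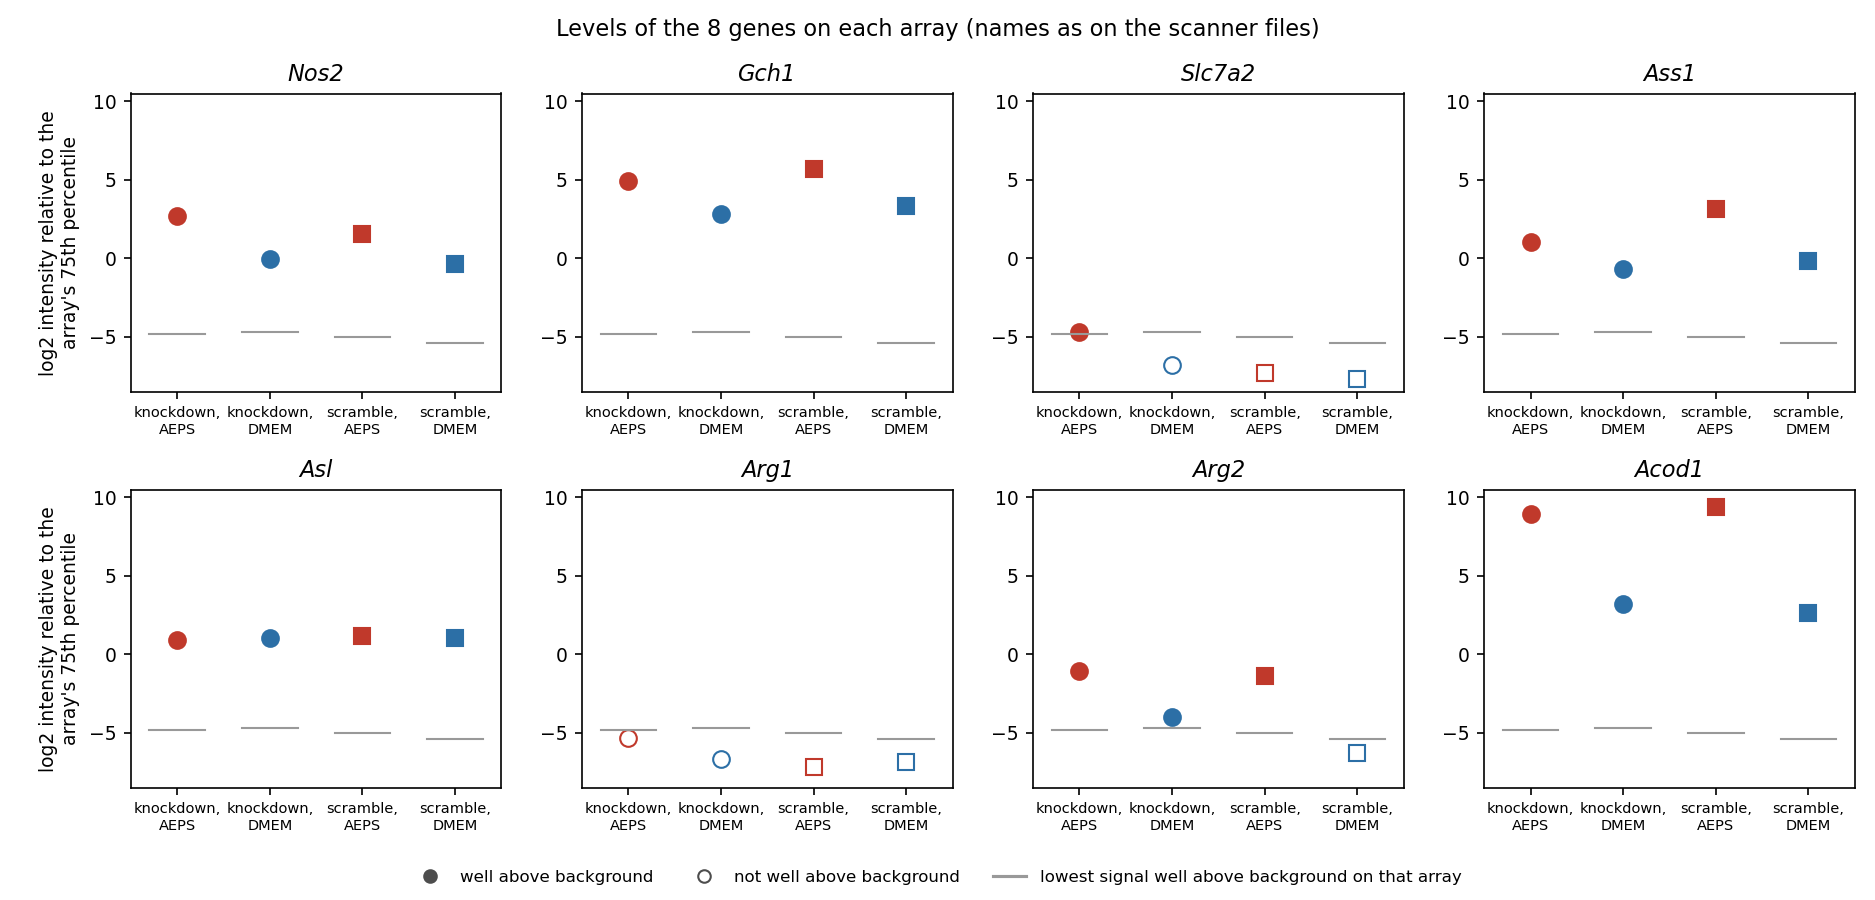
Level of each of the 8 genes on each of the 4 arrays, as log2 intensity relative to the array's 75th percentile (vertical axis). Circles are arrays labelled knockdown, squares arrays labelled scramble, red is AEPS and blue DMEM, filled symbols are well above background, open ones are not, and grey lines mark the lowest signal well above background on that array. Acod1, Nos2, Gch1, Ass1 and Arg2 are higher under AEPS on both pairs of arrays, Asl lies between 0.90 and 1.16 on all 4, and Arg1 is open throughout.

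Nos2, the nitric oxide synthase itself, was higher under AEPS on both lines. Its level was 2.69 under AEPS against -0.044 in DMEM on the arrays labelled knockdown, and 1.52 under AEPS against -0.38 in DMEM on those labelled scramble. The array labelled knockdown under AEPS was the highest of the 4 and the DMEM arrays were the lowest. The fold was 6.64 on the arrays labelled knockdown and 3.74 on those labelled scramble, and the AEPS effect over both lines was 2.32 ± 0.24 (SE; limma adjusted p = 0.0181). The 2 spots of its probe differed by a log2 SD of 0.0087 to 0.102 across the arrays.

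Gch1, which supplies the tetrahydrobiopterin that NOS2 needs, had levels of 4.93 under AEPS against 2.84 in DMEM on the arrays labelled knockdown, and 5.66 under AEPS against 3.30 in DMEM on those labelled scramble. It was 4.25-fold higher under AEPS on the arrays labelled knockdown and 5.12-fold higher on those labelled scramble, and rose by 2.22 ± 0.13 over both lines (SE; limma adjusted p = 0.00859). Of the 5 genes called, it had the smallest SE. Its dimmer probe, 1 of 2, differed more between the lines: its AEPS response differed by -0.56 between the arrays labelled knockdown and those labelled scramble, and that of the brighter probe by -0.27.

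Of the enzymes that recycle citrulline to arginine, Ass1 rose and Asl did not pass the test. Ass1 had levels of 1.04 under AEPS against -0.70 in DMEM on the arrays labelled knockdown, and 3.13 under AEPS against -0.18 in DMEM on those labelled scramble. It rose by 2.53 ± 0.42 over both lines (SE; limma adjusted p = 0.0382), with folds of 3.36 on the arrays labelled knockdown and 9.93 on those labelled scramble. Both Ass1 probes gave this order: the dimmer one had AEPS differences of 2.16 on the arrays labelled knockdown and 3.52 on those labelled scramble. Asl, the next enzyme, had levels of 0.90 under AEPS against 1.06 in DMEM on the arrays labelled knockdown, and 1.16 under AEPS against 1.05 in DMEM on those labelled scramble. AEPS and DMEM arrays of Asl overlapped, and its DMEM arrays differed by 0.010, within the spot error of a difference of 0.065. The AEPS effect of Asl was -0.026 with a 95% interval of -0.40 to 0.35 (limma adjusted p = 0.906).

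The arginases differed in whether they were measured at all. Arg2 had levels of -1.08 under AEPS against -4.01 in DMEM on the arrays labelled knockdown, a 7.60-fold difference. On the arrays labelled scramble its level was -1.38 under AEPS, and in DMEM it was not well above background, so that AEPS was at least 15.9-fold higher. For such a bound the dim array is given its lowest signal well above background, or the probe's own signal if that is higher. The fitted effect over both lines was 3.92 ± 0.52 (SE; limma adjusted p = 0.0263) and rests in part on that dim value. Arg2 entered the model through 3 arrays, of which 2 were the AEPS arrays. With the normexp background its effect was 1.78, and its bound on the arrays labelled scramble fell from 3.99 to 2.01 in log2 units.

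Arg1 was not well above background on any array. Its processed intensities were 11.0 under AEPS and 4.26 in DMEM on the arrays labelled knockdown, and 3.59 under AEPS and 5.00 in DMEM on those labelled scramble, where the lowest intensity well above background on an array was 14.2 to 16.7. No fold is given for it. Slc7a2 was well above background only under AEPS on the array labelled knockdown, with an intensity of 17.3, and had 4.00 in DMEM on the other array labelled knockdown, and 3.27 under AEPS and 2.89 in DMEM on those labelled scramble. Its bound for AEPS on the arrays labelled knockdown was at least 1.02-fold, which does not reach 2-fold.

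Acod1, the itaconate enzyme, had the largest AEPS effect of the 6 genes tested. Its level was 8.94 under AEPS against 3.18 in DMEM on the arrays labelled knockdown, and 9.35 under AEPS against 2.63 in DMEM on the arrays labelled scramble. Both AEPS arrays lay above both DMEM arrays. Its probe was printed 10 times, and the processed intensities averaged 219853 ± 5420 under AEPS and 3987 ± 167 in DMEM on the arrays labelled knockdown (SD between spots, n = 10 spots each), and 333817 ± 11210 under AEPS and 3643 ± 156 in DMEM on the arrays labelled scramble. Acod1 was thus 54.0-fold higher under AEPS on the arrays labelled knockdown and 105.7-fold higher on those labelled scramble. Ranked from the highest, that was 14 of 22335 differences on the arrays labelled knockdown and 22 of 23512 on those labelled scramble. Over both lines the AEPS effect was 6.24 ± 0.27 in log2 units (SE; limma adjusted p = 0.00714).

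Within each line, where a gene was called at a 2-fold difference or bound, AEPS was higher for 5 of the 8 genes on the arrays labelled knockdown and for 5 on those labelled scramble, and lower for 0. Over all genes measured, the arrays labelled knockdown had 4.67% called higher and 3.55% lower, and those labelled scramble 6.75% higher and 5.27% lower. These within-line differences have 1 array a group and no test.

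**Figure D2:**
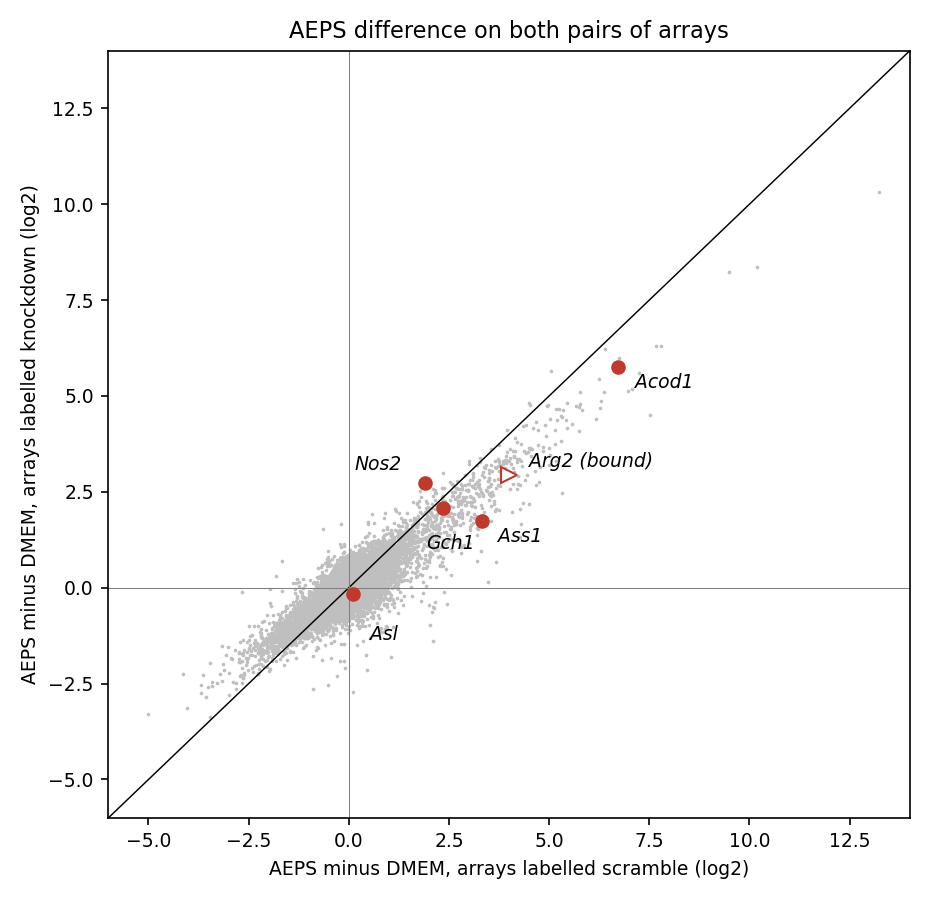
AEPS minus DMEM in log2 units on the arrays labelled scramble (horizontal axis) and labelled knockdown (vertical axis), for each gene well above background on all 4 arrays (grey) and for the named genes (red). The open triangle marks Arg2, whose horizontal value of 3.99 is a lower bound, and the diagonal marks equal differences. Nos2 lies above the diagonal, and Acod1, Ass1, Arg2, Gch1 and Asl lie below it.

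The AEPS response of Nos2 and Ass1 differed between the lines in opposite directions. The difference in response, taken as the knockdown-labelled AEPS difference less the scramble-labelled one, was 0.83 for Nos2, a 1.78-fold larger response, and -1.56 for Ass1, a 2.96-fold smaller one. It was -0.97 for Acod1 and -0.27 for both Gch1 and Asl. Arg2, with its bound in DMEM, had a difference of -1.06 or lower, which depended on the processing. With the normexp background, its AEPS difference was 1.55 on the arrays labelled knockdown and at least 2.01 on those labelled scramble. Without scaling between arrays, these were 2.96 and at least 3.78. In both settings the bound on the difference in response was under 2-fold. The difference in response leaves 0 residual degrees of freedom, and none of these values has a test. Ass1 was the only one of the 5 genes well above background on all 4 arrays to reach 2-fold, where 0.526% of 20324 genes reached it upward and 1.65% downward.

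Most genes that AEPS raised responded less where the label was knockdown. Of 723 genes at least 2-fold higher under AEPS on both lines and well above background on all 4 arrays, 82.3% did, with a median difference in response of -0.41. Without scaling between arrays, which moves each difference in response by 0.24, the share was 68.4% of 683 such genes and the median -0.22. Under the value table's names the share was 18% of 684 and the median 0.42. Of the rest of these 723 genes, 1 had a larger value than Nos2, namely Cd200r1 at 0.88, a gene named after its value was seen. Below Ass1 lay 39 genes, below Acod1 128 and below Gch1 437. Membership in this set needs a rise of at least 2-fold on both lines, which leaves out genes raised on 1 line only. Among all 20324 genes well above background on all 4 arrays, Nos2 ranked 221 from the highest and Ass1 96 from the lowest. These are positions in a ranking of differences, with 1 array a group.

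**Figure D3:**
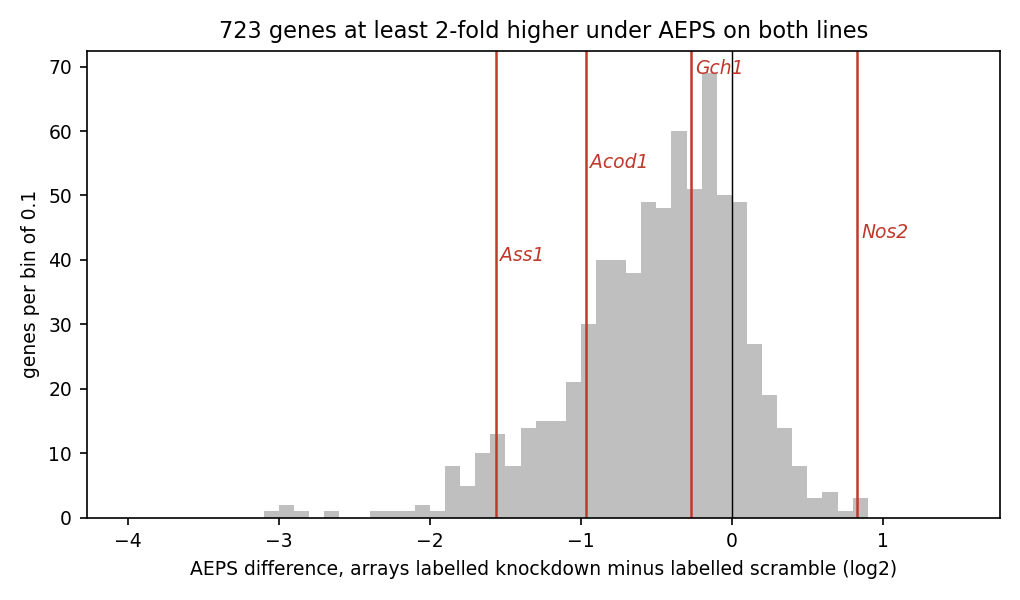
Histogram of the difference in AEPS response (labelled knockdown minus labelled scramble, log2, horizontal axis) for 723 genes at least 2-fold higher under AEPS on both lines, in bins of 0.1 (vertical axis, genes per bin). Red lines mark Ass1 at -1.56, Acod1 at -0.97, Gch1 at -0.27 and Nos2 at 0.83, near the upper end.

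Set side by side under AEPS, the lines differed by 2-fold or more in Ass1 and Nos2. The array labelled knockdown had 4.25-fold less Ass1 and 2.25-fold more Nos2 than the array labelled scramble. They were the calls at 2-fold among 7 genes measured, 1 higher and 1 lower, beside 1.87% of all genes higher and 2.72% lower. The differences of the others were -0.73 for Gch1, -0.42 for Acod1, -0.26 for Asl and 0.30 for Arg2, and Slc7a2 was at least 1.27-fold higher. Of the markers, Fcgr1 of macrophages (-2.48) and Col1a1 of fibroblasts (-1.02) were also called lower there, 1 of 11 macrophage markers and 1 of 10 measured markers of other cells, and their part in these differences was not tested. Without scaling between the arrays Nos2 was 0.98 higher, under 2-fold. Under the value table's names, Nos2 was -1.17 and Ass1 2.04.

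In DMEM, Ass1, Nos2, Gch1 and Asl lay closer between the lines than under AEPS, and Arg2 and Acod1 lay further apart. The array labelled knockdown had at least 2.57-fold more Arg2, the only call among 6 genes measured, where 2.42% of all genes were called higher and 1.55% lower. Arg2 was close to background there, with an intensity of 27.2 on the array labelled knockdown and 7.51 on that labelled scramble. The other differences were 0.55 for Acod1, 0.34 for Nos2, 0.010 for Asl, -0.46 for Gch1 and -0.52 for Ass1. The DMEM pair and the AEPS pair of arrays are separate samples. Arg2 was no longer called in DMEM with the normexp background or without scaling, and was -1.29 under the value table's names. Without scaling, Acod1 instead lay closer in DMEM, at 0.13 against -0.60 under AEPS. Gch1 (-0.88 in DMEM, -0.92 under AEPS) and Asl (-0.41 in DMEM, -0.44 under AEPS) then lay almost equally far apart in both media. Nos2 was then -0.082 in DMEM.

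With both media in 1 model, limma called 0 of 6 genes tested higher or lower between the lines, with 1 higher and 2 lower at an unadjusted p under 0.05, and adjusted calls for 0.408% of all genes higher and 0.354% lower, against 7.57% higher and 7% lower at that unadjusted p. The line effect was 0.75 ± 0.24 for Nos2 (95% interval 0.073 to 1.43, limma adjusted p = 0.31), -1.30 ± 0.42 for Ass1 (interval -2.48 to -0.13, limma adjusted p = 0.31) and -0.60 ± 0.13 for Gch1 (interval -0.97 to -0.22, limma adjusted p = 0.202), each with its SE. A p that misses the threshold does not show that the lines were alike. Leaving out the scaling between arrays moves every line effect by -0.30. In this additive model, a difference in response between the lines counts as error, with 1 residual degree of freedom.

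The neighbouring reactions moved in few places. Of 14 genes for other nitric oxide synthases, their partners and nitric oxide targets, 10 were tested, 0 rose and 1 fell, and 1 rise passed at an unadjusted p under 0.05. The gene that fell was Nostrin, an adaptor for the endothelial synthase (-0.72, limma adjusted p = 0.0348). Nos1, Ddah1, Gucy1a1 and Gucy1b1 were not well above background on any array, so neither subunit of the nitric oxide receptor guanylate cyclase listed was measured. The median over the tested genes of this list was -0.053, beside 0.069 for all genes tested. Across all genes tested, limma called 7.4% higher and 7.29% lower, and 17.5% rose at that unadjusted p.

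The fates of arginine and its transport held 4 further rises. Odc1, ornithine decarboxylase, which takes the arginases' product into polyamines, rose by 2.04 ± 0.18 (SE, limma adjusted p = 0.0146). Its AEPS difference was 1.76 on the arrays labelled knockdown and 2.33 on those labelled scramble. Sat1, which acetylates polyamines, rose by 0.76 (limma adjusted p = 0.0327), and these were 2 of 14 genes of arginine and ornithine fate, with 0 lower, also at an unadjusted p under 0.05, and a median of 0.16. Slc7a7, a light chain that exports cationic amino acids, rose by 2.55 ± 0.12 (SE, limma adjusted p = 0.00718), and Slc3a2, the heavy chain it pairs with, by 0.93 (limma adjusted p = 0.0232). They were 2 of 9 transport genes tested, with 4 higher and 0 lower at an unadjusted p under 0.05 and a median of 0.24. Across all genes tested, limma called 7.4% higher, and 17.5% were higher at an unadjusted p under 0.05. At that unadjusted p, the 2 of 14 genes of arginine and ornithine fate were no larger a share. The urea cycle genes Nags, Cps1 and Otc were not well above background on any array.

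Genes around itaconate's source did not pass the test. Of 23 genes of the citric acid cycle and citrate handling, limma called 0 higher and 0 lower, with 2 higher and 0 lower at an unadjusted p under 0.05 and a median of -0.061. The largest values were 0.36 for Dld (limma adjusted p = 0.13) and 0.33 for Acly (limma adjusted p = 0.141). The genes for itaconate breakdown had -0.35 for Auh and -0.033 for Clybl, and limma called 0 of these 2, with 0 at an unadjusted p under 0.05 and a median of -0.19. Across all genes tested, limma called 7.4% higher and 7.29% lower, and 17.5% were higher and 16.4% lower at that unadjusted p.

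Among 9 known activators of these genes, limma called 2 higher and 0 lower, with a median of 0.54. Across all genes tested, it called 7.4% higher and 7.29% lower, with a median of 0.069. At an unadjusted p under 0.05, 7 of the 9 rose and 0 fell, beside 17.5% of all genes higher and 16.4% lower. Nfkb1, an NF-kB subunit, rose by 2.21 ± 0.22 (SE, limma adjusted p = 0.0171) and Cebpb by 0.78 (limma adjusted p = 0.0352). Irf1, an interferon-response factor named after its values were seen, had a line difference of -2.09 under AEPS (labelled knockdown minus labelled scramble). The AEPS difference of Irf1 was 0.56 on the arrays labelled knockdown and 2.35 on those labelled scramble. Its AEPS effect over both lines missed the threshold (limma adjusted p = 0.127).

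**Figure D4:**
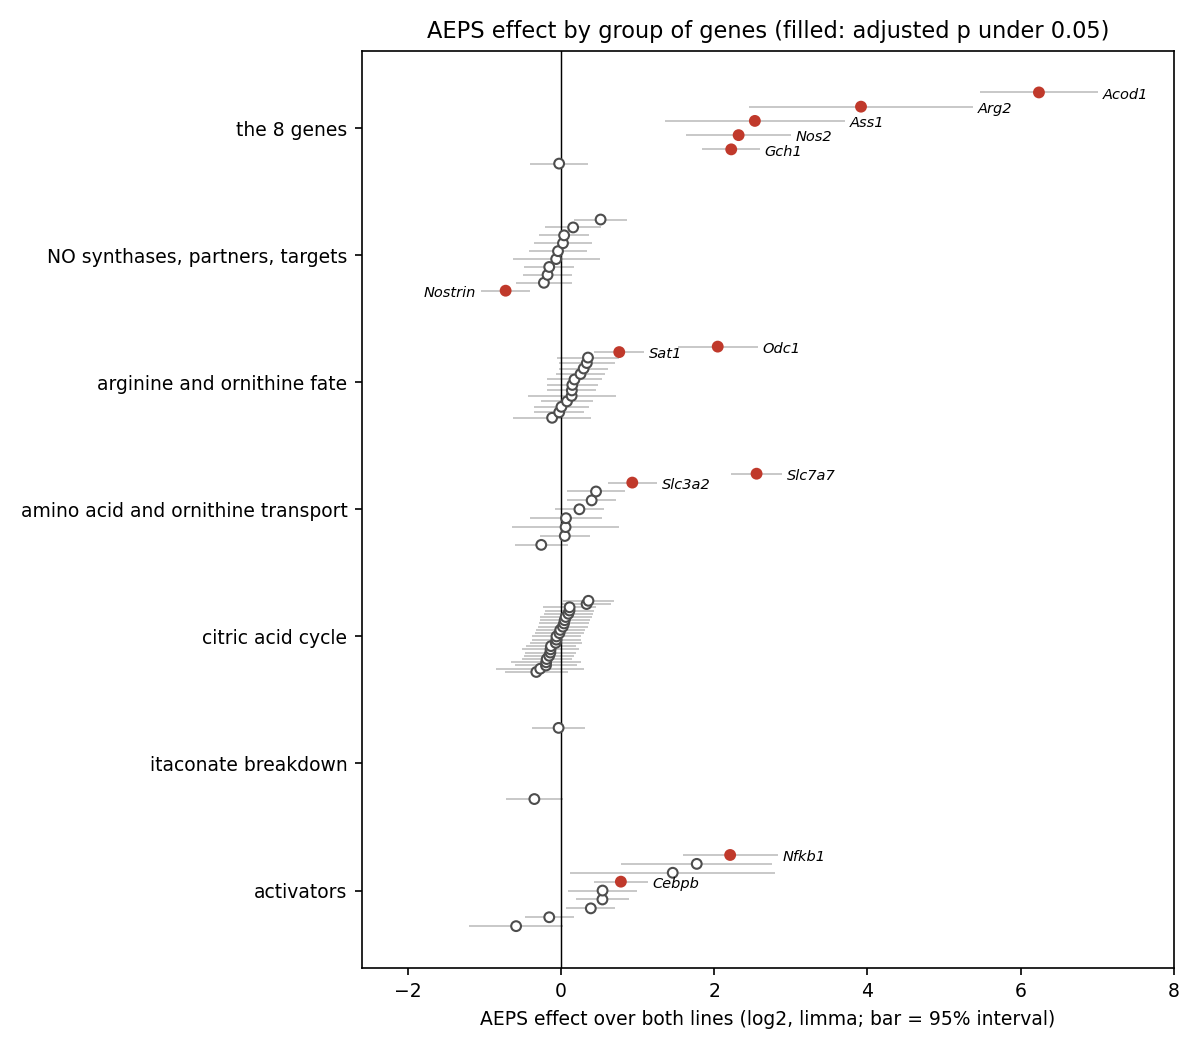
AEPS effect over both lines in log2 units (horizontal axis; points, limma estimates; bars, 95% intervals) for tested genes of the 8 and of the neighbouring groups (rows). Filled points passed an adjusted p of 0.05 and are named. The 8 genes hold 5 filled points and the citric acid cycle group holds 0 among 23.

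Likeness of pattern was taken as the smallest distance between log2 levels centred over the 4 arrays, among 13183 genes with an official symbol and well above background on all 4. Nearest to Nos2 were Il11 (distance 0.18), Cth (0.33) and Marchf11 (0.37). Nearest to Ass1 were Slfn4 (0.093), Sp140 (0.20) and Trim30a (0.25). Gch1 had Ralgds (0.17), Ccl6 (0.17) and Fgr (0.18). Nearest to Acod1 were Cd40 (0.53), Ccl4 (0.54) and Ccl7 (0.85), at larger distances. The 3 genes nearest to Ass1 had AEPS differences of 1.65 to 2.08 on the arrays labelled knockdown, against 3.06 to 3.33 on those labelled scramble. Il11 had 2.53 on the arrays labelled knockdown, against 1.78 on those labelled scramble, where Nos2 had 2.73 against 1.90. These genes were picked for closeness on the same 4 arrays, so their like AEPS differences follow from the choice. With 4 arrays the distances describe the arrays only.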

How the data were processed

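Total RNA was labelled with Cy3 and read on 1-colour arrays with Agilent Feature Extraction, the tool in the submitters' processing notes, version 10.7.1.1 per the file headers. In the deposited processed intensity, background had been subtracted and gradients over the array removed, dim spots carried surrogate values, and arrays were not scaled to each other, per the file headers. The same files hold mean intensity, local background and spot marks as other columns, per the file headers. The deposited value table holds log2 values normalized by the authors, in steps not given in the sources used here; its scale was taken from its match to the scanner files, and each column had a median of 4.69, and its centring and line names stay unknown.

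From log2 processed intensity, the array's 75th percentile (spots other than controls) was subtracted. Outlier spots were left out, spots of a probe averaged, and the brightest probe taken per gene. Names were updated through a RefSeq table by accession (26582 probes), symbol (2602) or synonym (492), and 26005 kept the design's name. limma 3.58.1 (lmFit, eBayes, R 4.3.3, prior df 2.82) with Benjamini-Hochberg adjustment was tested on simulated data. The simulated AEPS effects were alike on both lines, so the simulation does not check calls where the lines responded differently. All arrays shared 1 slide and scan.

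The 8 genes and all lists were chosen with earlier results of these data known. The text names the 8 genes, per list up to 4 called genes of largest size or else the 2 largest, and 3 nearest genes for members at least 2-fold changed on both lines. Alternatives were normexp background (offset 50), quantile or no scaling, the value table, probe means, other filters, an intensity trend, 1 factor, and a 1.5-fold threshold. Results for some listed genes are not reported here.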

Additional observations from a re-analysis of the deposited data

Results flagged for a closer look

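The line difference of Acod1 had opposite signs in the 2 media, -0.42 under AEPS and 0.55 in DMEM, which differ by -0.97. Asl had line differences of -0.26 under AEPS and 0.010 in DMEM, and AEPS differences of -0.16 on the arrays labelled knockdown and 0.11 on those labelled scramble, which in both cases differ by -0.27. Without scaling between arrays the signs of Asl no longer differed. Its line differences were then -0.44 under AEPS and -0.41 in DMEM. Its AEPS differences were then -0.13 on the arrays labelled knockdown and -0.096 on those labelled scramble. Each rests on 1 array a group, and these differences were not tested.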

How the results depend on the processing

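With 4 arrays and 1 residual degree of freedom, the calls depend on how the spread is estimated. The AEPS effect kept its sign for the 5 genes that rose under each alternative that could test them. When dim genes were kept, limma called 1 of the 8 higher (Acod1), and 251 genes higher and 27 lower in all; the adjusted p was 0.0784 for Nos2, 0.0923 for Arg2, 0.124 for Ass1 and 0.0538 for Gch1. With treatment alone in the model it called 2 of the 8 (Acod1 and Gch1), 735 and 584 in all. In the model as reported 1652 genes were higher and 1628 lower, with the normexp background 2510 and 2560, and with an intensity trend 3621 and 3081. The Arg2 effect was 1.78 with the normexp background.

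Between the lines, 91 genes were higher and 79 lower. The normexp background gave 415 and 310, with 1 of the 8 lower (Gch1), an intensity trend 581 and 706, with 2 lower (Ass1 and Gch1), and genes well above background on all 4 arrays 185 and 151. Without scaling there were 304 and 1411, with 1 of the 8 higher (Arg2) and 2 lower (Ass1 and Gch1). Without a filter limma called 0 and 0 (1729 and 1297 at an unadjusted p under 0.05), and with line alone 0 and 0 (467 and 423).

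In DMEM, 0 of the 8 were called higher with the normexp background, without scaling or with the value table, where 1 was lower, Arg2 at -1.29. Under AEPS, 0 were called higher without scaling, 2 were lower at 1.5-fold, and the value table turned Nos2 to -1.17 and Ass1 to 2.04. For the difference in response, quantile normalization gave 2 of the 8 at least 2-fold smaller (Acod1 at -1.07) and no scaling gave 1 larger (Nos2 at 1.06). The value table gave 2 larger and 0 smaller, with Ass1 at 1.505. Among genes raised on both lines, the median difference in response was -0.22 without scaling and 0.42 with the value table, where 18% responded less under the knockdown label. The 4 called values of single genes that changed sign all did so under the table's names. No paired analysis was possible because the groups share only replicate number 1, which leaves no block by number; the model as reported already compares media within each line, and lines within each medium.

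Arg1 and Slc7a2 were limited by signal near background.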
